A study of Homo sapiens with 6 samples.

Results

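The hnRNP, PTBP and PCBP RNA-binding proteins were followed in A2780, a human cell line established from an ovarian cancer, whose genotype is labelled WT. Cells treated with SCR-6920 at 1 µM for 48 h (n = 3) were compared with cells given DMSO, the solvent control, for 48 h (n = 3); the series title describes SCR-6920 as an inhibitor of PRMT5, an arginine methyltransferase. All 6 samples came from this 1 line, grown in 1640 medium with 10% serum. RNA was measured by stranded mRNA sequencing and deposited as counts per gene. The members were 32 genes of the 24054 in the deposited table, chosen by symbol: the HNRNP genes, RALY, SYNCRIP, the PTBP and PCBP paralogs, CELF1, MBNL1 and MBNL2. All 32 were found, and 31 had enough counts to be tested. The labels do not say whether replicates came from separate cultures, so p-values measure the spread between these samples, which may be technical.

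Heterogeneous nuclear ribonucleoproteins (hnRNPs) coat nascent pre-mRNA and influence which exons are spliced in, where transcripts are exported and how long they last. PTBP proteins bind pyrimidine-rich tracts and mostly repress exons, PCBP proteins and hnRNP K bind C-rich tracts through KH domains, and CELF and MBNL proteins often act on the same exons in opposite ways. Several of these proteins carry arginine-glycine repeats that PRMT enzymes methylate, and many of the genes tune their own mRNA through exons whose use leads to decay of the transcript. PTBP1 and PTBP2 are a known case of regulation between paralogs: PTBP1 represses an exon of PTBP2, and when that exon is skipped the transcript is degraded, which keeps PTBP2 low outside neurons and a few other tissues.

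The exon of PTBP2 that PTBP1 is known to repress is shown first, since PTBP2 was the member that changed most. It is the 34-base exon at chr1:96806419-96806452 on the plus strand of GRCh38 in the GENCODE 29 annotation, where 6 PTBP2 transcripts contain it, the 4 coding ones included, and 3 non-coding transcripts skip it. The deposited values are per gene and do not show how often this exon was used.

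PTBP2 34-base exon: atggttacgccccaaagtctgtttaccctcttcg

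Promoter windows of the 3 PTBP paralogs and of PCBP4, the members compared most closely below, are shown next to each other, the first listed window where RefSeq gives several. Each window is RefSeq sequence of GRCh38.p14 from 250 bases before to 50 bases after an annotated start, written along the gene's own strand, and capitals mark matches on either strand to 6 motifs. These were the CCAAT box, the GC box with letters GGGCGG, and the E box with letters CACGTG. The others were the TATA box, spelled TATAAA, a core site of ETS factors spelled CCGGAAGT and a core site of E2F factors spelled TTCCCGC. The windows are chr1:96722388-96722687 (plus strand) for PTBP2, chr19:797202-797501 (plus) for PTBP1, chr9:112332977-112333276 (minus) for PTBP3 and chr3:51967417-51967716 (minus) for PCBP4. The PTBP2 window lies downstream of the GENCODE first exons, which end at position 96721872, so it shows 1 annotated start only.

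PTBP2 promoter: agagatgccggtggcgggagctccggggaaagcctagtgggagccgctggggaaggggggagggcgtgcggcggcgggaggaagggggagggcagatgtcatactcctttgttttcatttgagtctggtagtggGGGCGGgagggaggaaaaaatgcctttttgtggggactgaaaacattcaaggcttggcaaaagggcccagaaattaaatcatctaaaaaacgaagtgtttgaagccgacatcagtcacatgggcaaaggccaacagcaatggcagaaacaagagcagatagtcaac

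PTBP1 promoter: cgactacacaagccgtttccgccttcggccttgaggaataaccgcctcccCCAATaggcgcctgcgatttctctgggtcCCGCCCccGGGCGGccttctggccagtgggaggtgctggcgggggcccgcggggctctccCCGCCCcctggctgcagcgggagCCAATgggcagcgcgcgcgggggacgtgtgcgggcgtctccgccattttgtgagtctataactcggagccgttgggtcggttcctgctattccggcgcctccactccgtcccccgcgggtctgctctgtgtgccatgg

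PTBP3 promoter: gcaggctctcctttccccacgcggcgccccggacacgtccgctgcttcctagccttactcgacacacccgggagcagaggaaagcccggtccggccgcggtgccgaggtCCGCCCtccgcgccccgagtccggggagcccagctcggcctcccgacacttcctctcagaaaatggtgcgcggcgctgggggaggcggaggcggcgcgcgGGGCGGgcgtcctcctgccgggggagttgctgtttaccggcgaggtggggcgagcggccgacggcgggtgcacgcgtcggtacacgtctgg

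PCBP4 promoter: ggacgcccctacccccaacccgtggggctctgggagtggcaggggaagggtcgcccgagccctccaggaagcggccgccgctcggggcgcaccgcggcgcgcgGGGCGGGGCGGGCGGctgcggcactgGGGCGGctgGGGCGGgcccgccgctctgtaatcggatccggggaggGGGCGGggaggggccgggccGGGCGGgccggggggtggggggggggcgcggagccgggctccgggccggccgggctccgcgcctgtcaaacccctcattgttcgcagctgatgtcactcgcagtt

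The 4 windows shown differ in composition. The PTBP2 window was 54% G and C with 11 CpG and 1 GC box, against 69.3% with 31 CpG, 2 CCAAT and 3 GC boxes for PTBP1, 74% with 42 CpG and 2 GC boxes for PTBP3, and 80% with 39 CpG and 7 GC boxes for PCBP4. Other annotated starts of the same genes differ: the second PTBP1 window was 82.7% G and C with 57 CpG, no CCAAT box, 2 GC boxes and 3 E2F cores, and the second of 3 PCBP4 windows was 59.3% with 2 CpG and no match. A contrast between genes therefore depends on the start chosen. Matches of the same or different motifs may overlap, as the first GC boxes of PCBP4 do. Promoter windows were given for 30 of the 32 members, 51 windows in all. A GC box was found in 66.7% of these 51 windows and in 45.0% of all 35116 windows of the same length, CCAAT in 45.1% and 34.6%, the E box in 19.6% and 7.26%, the E2F core in 23.5% and 6.55%, the ETS core in 5.88% and 4.14%, and TATAAA in 5.88% and 11.5%. The median G and C content was 66.3% in members' windows and 58.7% in all windows. A match is a run of letters, not a measured binding site.

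With SCR-6920, 9 members rose and 7 fell, and most of these changes were small. PTBP2 rose 1.96-fold and PCBP4 1.36-fold, while the other 14 members that changed did so by less than 1.25-fold. Among them HNRNPH3 and HNRNPUL2 rose 1.19-fold and 1.21-fold, and HNRNPR and HNRNPAB fell to 0.870 and 0.883 of their level in DMSO. PTBP1, PTBP3, HNRNPK, HNRNPA2B1, HNRNPC and HNRNPU were among the 15 that did not pass the test. The test was edgeR's quasi-likelihood test on counts, with Benjamini-Hochberg adjustment over all 14233 tested genes and a threshold of 0.05, and a positive log2 fold change, given with its SE, means a higher level with SCR-6920 than with DMSO.

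The 16 members called were 51.6% of the 31 tested, and 42% of all tested genes were called. The 9 rises stand beside 20.6% of all tested genes that rose, and the 7 falls (22.6% of tested members) beside 21.3% that fell. The 3 SCR-6920 samples and the 3 DMSO samples did not overlap in CPM (the count scaled to a common library total) for 21 of 31 members, 67.7%, against 50.6% of all tested genes. Only PTBP2 and PCBP4 were called and changed at least 1.25-fold, 6.45% of the tested members against 19.4% of all tested genes. The median absolute log2 fold change was 0.082 for the members and 0.19 for all tested genes, and the median signed log2 fold change was 0.0030 and -0.0019.

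The members were abundant: 18 were among the 1000 genes with the highest FPKM (counts scaled by sample total and gene length), and their median FPKM was 113, against 5.35 for all tested genes. Among the 498 tested genes at or above an FPKM of 112, the median of all 32 members, 64.5% were called. Of these 498, 4.82% were called with a change of at least 1.25-fold, and the median absolute log2 fold change was 0.0997. The members to set beside these values are the 16 at or above that FPKM. Of these 16, 3 rose and 3 fell, 0 changed at least 1.25-fold, and the median absolute log2 fold change was 0.048. PTBP2 and PCBP4 lay below that FPKM.

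**Figure D1:**
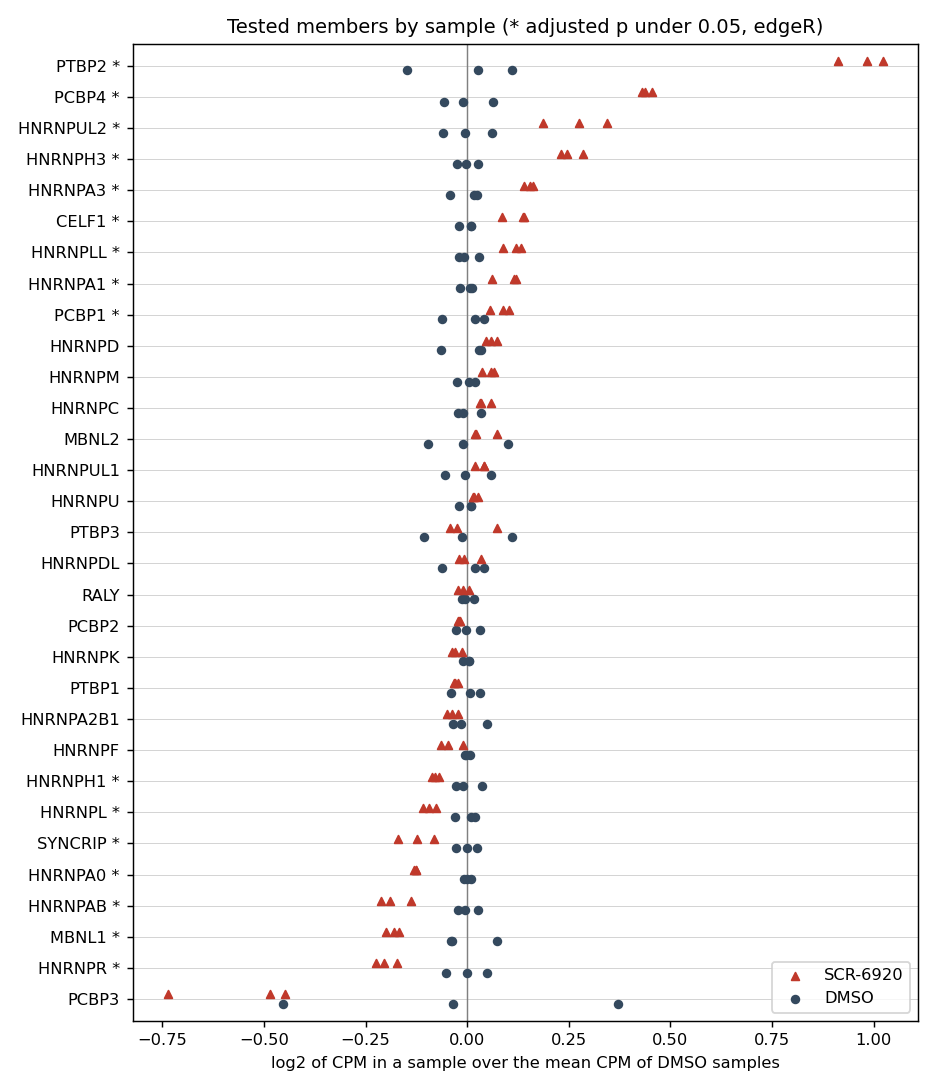
Each row is a tested member and each point a sample, placed by the log2 of its CPM over the mean CPM of the 3 DMSO samples, with SCR-6920 samples as triangles, DMSO samples as circles and an asterisk on members with an edgeR adjusted p under 0.05. The SCR-6920 samples of PTBP2 and PCBP4 stand well to the right of the DMSO samples, those of HNRNPR, MBNL1 and HNRNPAB stand to the left, and PCBP3 shows the widest spread among the DMSO samples.

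PTBP2, the PTBP paralog best known from neurons, was at 89.6, 94.2 and 96.7 CPM in the SCR-6920 samples, against 51.4, 48.5 and 42.9 CPM in the DMSO samples. The lowest SCR-6920 sample lay above the highest DMSO sample by more than the whole range of either group. The log2 fold change was 0.97 ± 0.05 (SE, edgeR adjusted p 3.57e-14), and 4.52% of all tested genes had a log2 fold change at least as large in size. By FPKM, which depends on the gene length used, PTBP2 ranked only 6897th of the tested genes.

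PTBP1, the paralog that most dividing cells express, was at 739, 743 and 738 CPM with SCR-6920, against 735, 759 and 771 CPM with DMSO. PTBP3, a paralog first described in blood cells, was at 162, 152 and 150 CPM with SCR-6920, against 167, 153 and 143 CPM with DMSO. In both genes the groups overlapped, and the log2 fold changes were -0.028 ± 0.024 (SE, edgeR adjusted p 0.366) for PTBP1 and 0.0030 ± 0.048 (adjusted p 0.969) for PTBP3. The sign of the PTBP3 value turned under several settings, in each case with a value near 0.

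Per length, PTBP2 remained the least abundant of the 3 in both groups. Its FPKM was 7.27, 7.66 and 7.90 with SCR-6920 and 4.22, 3.97 and 3.52 with DMSO, while PTBP1 lay between 192 and 202 and PTBP3 between 17.5 and 20.3 over all samples. PTBP2 made up 3.33, 3.49 and 3.61% of the summed PTBP FPKM with SCR-6920, against 1.94, 1.79 and 1.58% with DMSO. The difference in means was 1.71 percentage points (3.48 ± 0.14 against 1.77 ± 0.18, SD, n = 3 each), with an exact two-sided permutation p of 0.1, the smallest that 3 samples against 3 allow. The summed PTBP FPKM was 218.9 ± 0.24 with SCR-6920 and 220.7 ± 2.9 with DMSO (SD, n = 3 each, exact permutation p 0.4), a difference of -1.81.

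**Figure D2:**
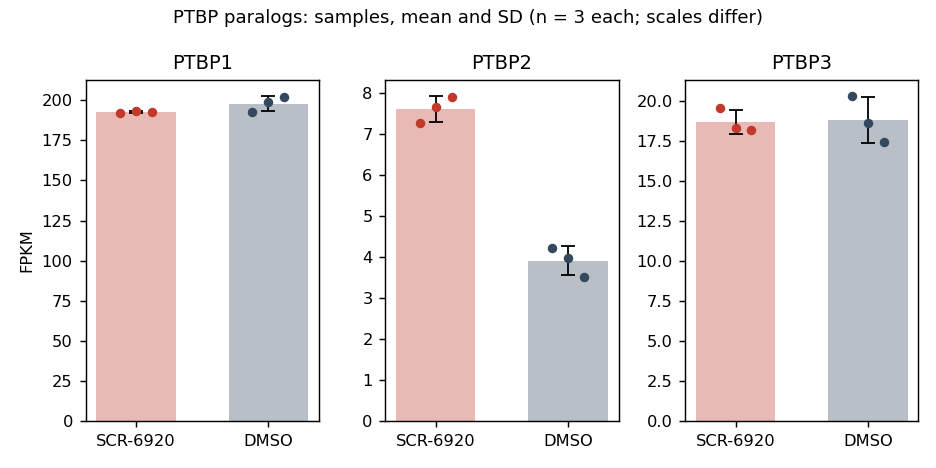
FPKM of the 3 PTBP paralogs, with SCR-6920 samples at the left and DMSO samples at the right of each panel, a bar for the mean, an error bar for the SD (n = 3 each) and a point per sample; each panel has its own scale. PTBP2 lies between 7.27 and 7.90 with SCR-6920 and between 3.52 and 4.22 with DMSO, while the points of the 2 groups overlap for PTBP1 and PTBP3.

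Of the neuronal markers tested, only TUBB3 was called, and it fell. Of 7 neuronal markers analysed, SNAP25 and STMN2 had no count in any sample, RBFOX3 had counts in 1 SCR-6920 sample only, and the summed level of the list was 20.8 to 23.9 CPM with SCR-6920 and 22.0 to 24.1 CPM with DMSO. Of the 3 markers tested TUBB3 fell, with 49, 72 and 111 counts in SCR-6920 samples against 159, 138 and 185 in DMSO samples (log2 fold change -1.003 ± 0.23, edgeR adjusted p 0.000946). MAP2 was at 11.3, 9.11 and 10.4 CPM with SCR-6920 and 7.57, 7.90 and 9.63 CPM with DMSO, a log2 fold change of 0.29 ± 0.12 that did not pass (edgeR adjusted p 0.0540). NEFL had -0.020 ± 0.11 (edgeR adjusted p 0.907), and the part of these markers in the PTBP2 value was not tested. The genes with exons that PTBP proteins are known to control did not all behave alike: DLG4, whose neuronal exon PTBP1 and PTBP2 repress in mouse, had a log2 fold change of -0.017 ± 0.063 (edgeR adjusted p 0.854), PKM had -0.028 ± 0.022 (adjusted p 0.331), and GABBR1 fell by 0.20 (SE 0.07, adjusted p 0.0294). DLG4, PKM and GABBR1 are named here after their values were seen.

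Of the C-rich-tract binders, PCBP4, which was described as a p53-induced gene that slows growth, rose. It was at 46.7, 46.9 and 47.5 CPM with SCR-6920, against 33.3, 34.4 and 36.2 CPM with DMSO, without overlap. The log2 fold change was 0.44 ± 0.06 (SE, edgeR adjusted p 1.40e-07). In GENCODE 29 its exons overlap those of ABHD14B on the same strand and of GPR62 on the other, and the part of the overlap in these counts was not tested.

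PCBP1, an intronless gene whose product also delivers iron to other proteins, was at 410.0, 414 and 401 CPM with SCR-6920, against 391, 369 and 397 CPM with DMSO. It rose by 0.082 ± 0.028 on the log2 scale (edgeR adjusted p 0.0194). The gene was not called when SCR-6920 replicate 1 (adjusted p 0.0799), SCR-6920 replicate 2 (0.119) or DMSO replicate 2 (0.221, log2 fold change 0.052) was left out, nor with limma on log2 FPKM, where the adjusted p was 0.0749 with a pseudocount of 1, 0.0746 with 0.1 and 0.163 without a filter.

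PCBP2 was at 494, 493 and 494 CPM with SCR-6920 and 491, 511 and 499.7 CPM with DMSO, with a log2 fold change of -0.020 ± 0.025 (edgeR adjusted p 0.571). HNRNPK, the hnRNP that binds poly(C) and also acts in transcription, ran from 1137 to 1157 CPM with SCR-6920 and from 1159 to 1171 CPM with DMSO, a log2 fold change of -0.026 ± 0.022 that did not pass (adjusted p 0.365). PCBP3 was nearly absent, at 1.26, 1.54 and 1.49 CPM with SCR-6920 and 2.04, 1.53 and 2.71 CPM with DMSO. Its groups overlapped and its log2 fold change was -0.55 ± 0.28 (edgeR adjusted p 0.120); without DMSO replicate 2 it was -0.73 with an adjusted p of 0.0475.

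In the A/B and D group, 2 of 7 members rose, 2 fell and 3 did not pass. HNRNPA1, a repressor of exons through silencer elements and the most abundant member by FPKM, was at 3041, 3031 and 2921 CPM with SCR-6920, against 2765, 2819 and 2809.6 CPM with DMSO. The groups did not overlap, and the log2 fold change was 0.0995 ± 0.020 (edgeR adjusted p 0.000155). HNRNPA3, a close relative, rose by 0.15 ± 0.02, with 922, 908 and 917 CPM against 834, 838 and 800.3 CPM in DMSO samples (adjusted p 3.26e-06). GENCODE 29 lists 75 pseudogenes named after HNRNPA1 and 16 named after HNRNPA3, none of them in the deposited table, so reads shared with these copies make both counts uncertain.

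HNRNPAB and HNRNPA0 moved the other way. HNRNPAB, which binds single-stranded nucleic acids and is linked to mRNA transport, was at 496, 478 and 470.5 CPM with SCR-6920 and 537, 556 and 543 CPM with DMSO, a fall of 0.18 ± 0.03 on the log2 scale (edgeR adjusted p 1.24e-06). HNRNPA0, which binds AU-rich stretches of mRNA, was at 407, 409 and 409 CPM against 449, 446 and 444 CPM, a fall of 0.13 ± 0.03 (adjusted p 0.000112). HNRNPA2B1, the second most abundant member, did not pass, with 1964, 1944 and 1928 CPM with SCR-6920 and 2065, 1975 and 1946 CPM with DMSO (log2 fold change -0.036 ± 0.022, adjusted p 0.196); without DMSO replicate 3 its adjusted p was 0.0462. HNRNPD, the AU-rich element binder AUF1, and its relative HNRNPDL had log2 fold changes of 0.059 ± 0.026 (adjusted p 0.0666) and 0.0018 ± 0.028 (adjusted p 0.967); HNRNPD passed without DMSO replicate 3 (0.0333).

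HNRNPC, which binds uridine tracts and keeps cryptic exons from being spliced, and its relative RALY did not pass, with log2 fold changes of 0.041 ± 0.022 (edgeR adjusted p 0.148) and -0.0098 ± 0.034 (adjusted p 0.847). The F and H group binds runs of G. HNRNPH3 was at 351, 341 and 338 CPM with SCR-6920 and 293, 283 and 287 CPM with DMSO, a rise of 0.25 ± 0.03 without overlap (adjusted p 8.23e-09). HNRNPH1 fell by 0.078 ± 0.024, with 699.5, 692 and 695 CPM against 753, 729 and 721 CPM (adjusted p 0.00863), and HNRNPF had -0.041 ± 0.025 (adjusted p 0.193). HNRNPH2 had 1, 0 and 2 counts with SCR-6920 and 1, 4 and 5 with DMSO and was not tested. Its exons overlap those of an annotated readthrough transcript, RPL36A-HNRNPH2, on the same strand in GENCODE 29. How the counting treated reads in this overlap is not stated, so the low count does not show that the gene is little expressed.

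HNRNPL, which binds CA repeats, fell and its paralog HNRNPLL, known for controlling CD45 exons in lymphocytes, rose. HNRNPL was at 536, 524 and 529.9 CPM with SCR-6920 and 554, 573 and 569 CPM with DMSO (log2 fold change -0.093 ± 0.025, edgeR adjusted p 0.00297). HNRNPLL was at 85.2, 84.5 and 82.6 CPM with SCR-6920 and 77.3, 79.3 and 76.6 CPM with DMSO (0.11 ± 0.04, adjusted p 0.0291), and neither gene's groups overlapped. HNRNPLL was not called when SCR-6920 replicate 1 (adjusted p 0.107), SCR-6920 replicate 2 (0.0866) or DMSO replicate 3 (0.0816) was left out, nor with limma on FPKM without a filter (0.0598).

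HNRNPR and SYNCRIP (hnRNP Q), paralogs that act in mRNA transport and translation, both fell. HNRNPR was at 410.1, 419.6 and 404 CPM with SCR-6920, against 489, 473 and 456 CPM with DMSO, the largest fall among the members called (log2 fold change -0.20 ± 0.03, edgeR adjusted p 4.76e-07). SYNCRIP was at 507, 493 and 477 CPM against 546, 537 and 527 CPM (-0.12 ± 0.03, adjusted p 0.000268). HNRNPM, which binds GU-rich sites, had 0.054 ± 0.024 (adjusted p 0.0704) and passed without DMSO replicate 3 (0.0486).

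Of the U group, HNRNPUL2, which takes part in the response to DNA breaks, was at 75.0, 78.6 and 70.5 CPM with SCR-6920 and 59.4, 61.7 and 64.7 CPM with DMSO. The groups did not overlap and it rose by 0.27 ± 0.05 (log2, edgeR adjusted p 3.25e-05). Its exons overlap those of the readthrough gene HNRNPUL2-BSCL2 on the same strand. How the counting treated reads in this overlap is not stated, so the counts may be incomplete or shared. HNRNPU, a chromatin-bound scaffold protein, and HNRNPUL1 had 0.019 ± 0.021 (adjusted p 0.494) and 0.035 ± 0.027 (adjusted p 0.325).

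CELF1, which binds GU-rich elements and promotes decay or exon changes, rose, while MBNL1, its antagonist on several developmental exons, fell. CELF1 was at 236, 237 and 228 CPM with SCR-6920 and 216, 216 and 212 CPM with DMSO (log2 fold change 0.12 ± 0.03, edgeR adjusted p 0.00152). MBNL1 was at 57.9, 57.2 and 58.4 CPM against 69.0, 63.9 and 64.0 CPM (-0.18 ± 0.05, adjusted p 0.00242), and neither gene's groups overlapped. MBNL2, at 4.01 to 4.59 CPM over all samples, had 0.038 ± 0.16 (adjusted p 0.878). In GENCODE 29, exons of both CELF1 and MBNL1 overlap genes on the opposite strand. So do those of 7 of the 16 members called and of 14 of all 32 members. Whether the counting used strand is not stated in the labels or notes.

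Split at an FPKM of 112, the 16 abundant members had 3 rises, 3 falls and 10 that did not pass, with log2 fold changes from -0.18 to 0.15 and a median absolute value of 0.048; 64.5% of all tested genes at or above that FPKM were called. The 15 tested members below the split had 6 rises, 4 falls and 5 that did not pass. Their log2 fold changes ran from -0.55 to 0.97, with a median absolute value of 0.13. Over all tested genes, at any FPKM, 42% were called, and the share below the split was not computed. The SEs differed as well, from 0.020 to 0.028 in the abundant members and from 0.025 to 0.28 in the others, where PCBP3 had the largest. HNRNPH3, at an FPKM of 111, lay just below the split, which was not used as a test.

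**Figure D3:**
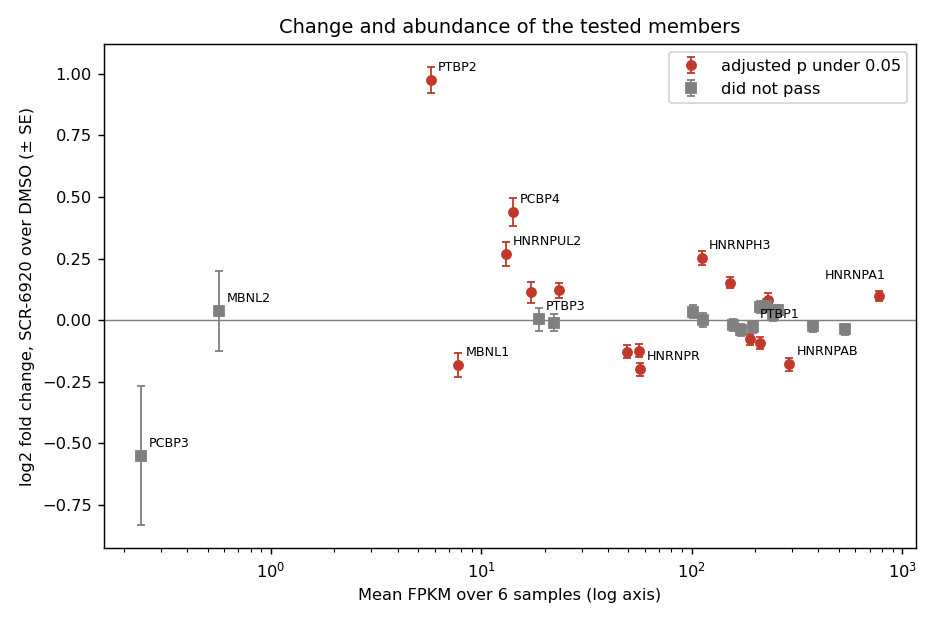
Log2 fold change of SCR-6920 over DMSO with its SE (vertical axis) against the mean FPKM over 6 samples on a log axis (horizontal axis), with a circle for each member with an edgeR adjusted p under 0.05 and a square for each that did not pass. PTBP2 at 0.97 and PCBP4 at 0.44 lie among the less abundant members, while no member above an FPKM of 112 lies outside -0.18 to 0.15.

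Paralog ratios were compared within samples, as log2 ratios of counts, for 20 of 21 listed pairs (HNRNPH2 was left out). The 2 groups did not overlap in 12 pairs. For single genes 50.6% of all tested genes did not overlap, and the share among pairs of other genes was not computed. The exact two-sided permutation p for these was 0.1, the smallest possible, and 0.167 after Benjamini-Hochberg adjustment over the 20 pairs, so no pair could pass. PTBP2 over PTBP1 had the largest difference, 1.01, with log2 ratios of -2.99 ± 0.06 with SCR-6920 and -3.99 ± 0.17 with DMSO (SD, n = 3 each). PTBP2 over PTBP3 differed by 0.97, while PTBP3 over PTBP1 differed by 0.033 and overlapped.

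PCBP3 over PCBP2 differed by -0.49, with overlapping groups. Differences among other pairs without overlap were 0.46 for PCBP4 over PCBP2, 0.33 for HNRNPH3 over HNRNPH1, 0.25 for HNRNPUL2 over HNRNPU, 0.22 for MBNL2 over MBNL1 and 0.21 for HNRNPLL over HNRNPL. HNRNPAB over HNRNPD differed by -0.24, HNRNPA0 over HNRNPA1 by -0.23, HNRNPA2B1 over HNRNPA1 by -0.14 and PCBP2 over PCBP1 by -0.10. SYNCRIP over HNRNPR differed by 0.075 although both genes fell. Since the ratio is taken within a sample, the choice of scaling between samples does not enter it.

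**Figure D4:**
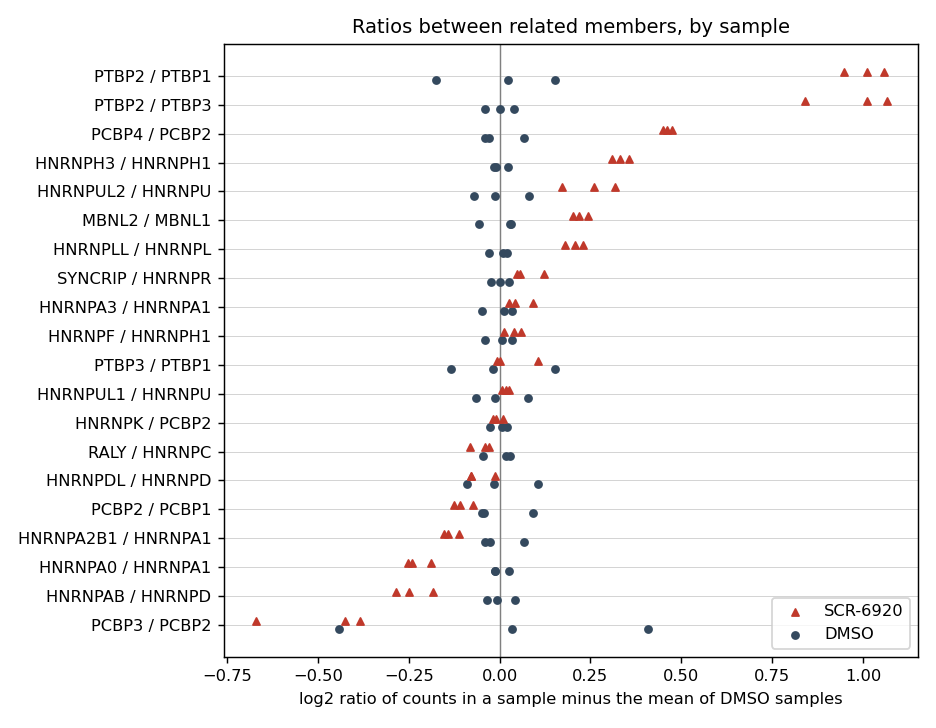
Each row is a pair of related members and each point a sample, placed by its log2 count ratio minus the mean of the 3 DMSO samples, with SCR-6920 samples as triangles and DMSO samples as circles. The pairs with PTBP2 over PTBP1 or PTBP3 have their SCR-6920 samples near 1, and the SCR-6920 samples of PTBP3 over PTBP1 lie among the DMSO samples.

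The members together took nearly the same share of each library. They held 1.87, 1.86 and 1.85% of counts in SCR-6920 samples and 1.86, 1.86 and 1.84% in DMSO samples, a difference of 0.0041 percentage points that is within the spread of either group (exact permutation p 0.6). HNRNPA1, HNRNPA2B1, HNRNPK, HNRNPAB and HNRNPC, the 5 most abundant by FPKM, made up 46.1 ± 0.20% of the members' summed FPKM with SCR-6920 and 46.3 ± 0.15% with DMSO (SD, n = 3 each, exact permutation p 0.3).

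Nonsense-mediated decay transcripts are annotated in GENCODE 29 for 17 of the 31 tested members, 54.8%, and for 40.7% of the 12938 tested genes found there. Transcripts with a retained intron are annotated for 21 members, 67.7%, and for 55.3% of those genes. These shares were not matched for abundance or for the number of annotated transcripts per gene. PTBP2 has no transcript of either class in this annotation.

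Of 29 other splicing regulators and family members tested, 7 rose, 8 fell and 14 did not pass, 51.7% called against 42% of all tested genes, with a median log2 fold change of -0.031. RBFOX2, a regulator of muscle, neural and epithelial exons, rose by 0.37, TIAL1, a relative of the granule protein TIA1, by 0.25 and NONO, a paraspeckle protein, by 0.17. TAF15, an RNA-binding protein with arginine-glycine repeats, was at 138, 135 and 136 CPM with SCR-6920, against 316, 340.1 and 326 CPM with DMSO, a fall of 1.27 ± 0.03 on the log2 scale and larger than that of any member. EWSR1, a relative of TAF15, fell by 0.31 and TARDBP by 0.18. CELF2, added after its values were seen, had 13, 16 and 11 counts with SCR-6920 and 0, 1 and 1 with DMSO.

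Of 18 tested genes with exons known to be regulated by these proteins, 4 rose, 4 fell and 10 did not pass, 44.4% called against 42% of all tested genes, with a median log2 fold change of -0.019. FAS, a death receptor with an exon repressed by PTBP1, rose by 1.47 ± 0.10, and SMN1, whose counts may be shared with the near-identical SMN2, rose by 0.32. FLNA and TPM1, genes of the actin cytoskeleton, fell by 0.42 and 0.18. Gene counts carry no exon usage. Of 7 import receptors and arginine methyltransferases, none rose and 3 fell, 42.9% called against 42% of all tested genes, with a median log2 fold change of -0.065. PRMT1 fell by 0.26, TNPO1, the import receptor of hnRNP A1, by 0.33, and TNPO2 by 0.11. PRMT5 itself had 0.018 ± 0.033 (edgeR adjusted p 0.705); an enzyme inhibitor need not change its target's mRNA, so this value does not check the labels.

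Library totals were 38149448 to 38642181 counts with SCR-6920 and 39122787 to 39749993 with DMSO. Of 9 ovarian and epithelial markers analysed, KRT7 had no count, and PAX8, MUC16, MSLN and CDH1 were near 0. Of the 4 tested, 2 rose, EPCAM and KRT8. The list summed to 6.94 to 9.37 CPM with SCR-6920 and 4.82 to 5.89 CPM with DMSO. These low levels give the label of an ovarian cancer cell little support and do not contradict it. Endothelial markers reached at most 0.0524 CPM in sum, with VWF and CDH5 at 0. Leukocyte markers summed to 1.90 to 2.44 CPM with SCR-6920 and 2.70 to 3.43 CPM with DMSO, with PTPRC at 0, and CD68, the only one tested, fell by 0.54 (SE 0.22, edgeR adjusted p 0.0458). Fibroblast markers summed to 63.3 to 65.5 CPM with SCR-6920 and 63.1 to 68.5 CPM with DMSO, but 2 of the 5 tested were called in opposite directions. COL1A1 was at 15.4, 16.6 and 15.3 CPM with SCR-6920 and 7.67, 8.52 and 8.35 CPM with DMSO (log2 fold change 0.94 ± 0.10), and THY1 at 44.6, 45.0 and 44.2 CPM against 52.0, 56.1 and 56.9 CPM (-0.30 ± 0.05). Their part in the members' changes was not tested.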

How the data were processed

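The authors deposited whole-number counts per gene and FPKM values for 6 samples. Per the submitters' processing notes, HISAT2 and HTSeq were used with GRCm38, a mouse build, although the table holds human gene symbols; tool versions, annotation and strand setting were not given in these sources. The deposited FPKM equalled the count over the sample total and 1 gene length for all 21442 genes above 0 (relative tolerance 1e-06). Counts of all 24054 genes were filtered with filterByExpr, scaled by TMM and tested with edgeR 4.0.16 in R 4.3.3 (quasi-likelihood, robust; 14233 genes; Benjamini-Hochberg over all of them). CPM is the count divided by the sample's total over the tested genes after TMM scaling, on the usual scale. Single values were compared by exact permutation tests over samples. The edgeR step was tested on simulated data. Alternatives were RLE and library-size scaling, other filters, a replicate block, leaving out each library, DESeq2 1.42.0 and limma 3.58.1 on log2(FPKM + 1). Paralog ratios used a prior count of 0.5.

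The members and the other lists were chosen with earlier results of these data known. All members are named; of each other list, the named genes are at most 3 rises and 3 falls, those of smallest adjusted p, and others named were chosen after their values were seen. A few of the genes picked this way are not reported here. Chi-square values per gene between replicates, 3.74 to 9.25, exceeded counting noise. A comparison of the members' protein sequences was planned and is not analysed here.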

Additional observations from a re-analysis of the deposited data

How the results depend on the processing

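The direction and call of 14 of the 16 members called held in all 15 settings tried per member; HNRNPLL lost its call in 4 and PCBP1 in 6, with the values given beside them. Members changed ran from 14 to 18, members higher from 7 to 10 and members lower from 7 to 8, and an adjusted p under 0.01 left 14, 7 and 7. The replicate numbers did not pair the samples (correlations of deviations 0.0066, 0.0050 and 0.038), and the fit with a replicate block called 16 members, 9 higher and 7 lower. Values near 0 changed sign without passing. HNRNPDL was -0.0097 by library size only, -0.0091 by limma on log2(FPKM + 1), filtered or not, -0.0092 with a pseudocount of 0.1, and -0.030 to 0.024 with 1 library left out. PTBP3 was -0.0087, -0.0064 and -0.0067 under these settings and -0.049 to 0.062 with 1 library left out, and MBNL2 ran from -0.0093 to 0.091. The members' share of counts differed by -0.00085 to 0.0097 percentage points with 1 library left out, and their share of summed FPKM by -0.011. The cause was not tested. Non-overlapping paralog pairs numbered 12 to 14. The PTBP2 share differed by 1.61 to 1.79 percentage points with 1 library left out, 1.86 over PTBP1 and PTBP2 only and 4.49 on counts without length. PCBP3 and MBNL2 had too few counts for small changes to be detectable at this depth. HNRNPH2 had too few counts to be tested, and the part of its readthrough overlap in that low count was not tested.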
